A study of Homo sapiens with 4 samples.

Results

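The short arm of chromosome 12 (12p) was examined as 665 open regions that had a called peak in all 4 libraries of the series and lay between 0 and 35 Mb on chromosome 12 of GRCh38. They were chosen from 1900 merged regions on the arm and belong to 50771 such shared regions genome-wide. Of the 665, 361 lay at 0 to 20 Mb, 203 at 20 to 30 Mb and 101 at 30 to 35 Mb. The counts of these regions chose them, so their levels and their differences between the groups are descriptions. The last region inside the 35 Mb border ended at position 34341446, with a mean of 18.3 CPM (counts per 1000000 counts in all shared regions), and the first beyond it started at 38053438, with 11.7 CPM.

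The libraries were single-nucleus ATAC-seq of the human line Panc1, which derives from a pancreatic ductal adenocarcinoma, taken from the pancreas of transplanted mice. Inflachromene-treated mice 11 and 35 were compared with carrier-treated mice 12 and 31, with 1 library per mouse. Inflachromene is a small molecule that binds the chromatin proteins HMGB1 and HMGB2. The labels give no dose, duration or mouse strain, and all 4 libraries come from 1 cell line. ATAC-seq marks open chromatin by the cuts of a transposase.

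The arm carries genes of growth control and metabolism. CDKN1B, an inhibitor of cyclin-dependent kinases, lies near the middle of the arm. The stretch at 20 to 30 Mb includes RASSF8, a RAS-association domain protein of cell junctions, and BHLHE41, a helix-loop-helix repressor that binds E-box sequences and acts in the circadian clock. Counts in an ATAC library depend on how open a region is and on how many copies of it a nucleus carries, and those cannot be told apart here.

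Inflachromene libraries held 27088391 (mouse 11) and 39947056 counts (mouse 35), against 33336531 (mouse 12) and 29295799 (mouse 31) in Carrier libraries. The members took 311463 and 487248 of these counts under Inflachromene and 441979 and 383449 under Carrier. The libraries shared barcode names: Inflachromene 11 and Carrier 12 had 1209 in common, Carrier 12 and Carrier 31 had 357, Inflachromene 11 and Carrier 31 had 155, and the other pairs had 25 to 29. Leaving out barcodes with at least 10 times as many counts under the same name in another library removed 0.0139% to 0.765% of the counts of a library and no barcode of 10000 or more counts. Results without these barcodes are given beside those they touch. Regions within 1 kb of a gene end were present for 5 of 6 carcinoma markers, whose summed level, here per 1000000 counts at gene ends for all marker lists, was 105 and 129 CPM under Inflachromene and 121 and 102 CPM under Carrier. They were present for 4 of 6 fibroblast markers (DCN and LUM had none). Their summed level was 206 and 212 CPM under Inflachromene and 239 and 230 CPM under Carrier. Most of it came from COL1A1, with 133 and 137 CPM under Inflachromene and 150 and 151 CPM under Carrier. Regions were also present for 3 of 5 myeloid markers (PTPRC and ITGAM had none). Their summed level was 91.0 and 110 CPM under Inflachromene and 119 and 94.3 CPM under Carrier. Most of it came from CD68, with 64.8 and 79.1 CPM under Inflachromene and 86.7 and 65.3 CPM under Carrier. A single T and NK cell marker of 5 had a region, at 14.1 and 19.7 CPM under Inflachromene and 17.0 and 11.7 CPM under Carrier. No marker of endothelial, B, acinar, endocrine or Schwann cells had one. The part of the fibroblast markers in the results on 12p was not tested.

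Promoters of 5 genes are shown. BHLHE41, SSPN and BCAT1 lie at 24 to 27 Mb, while LDHB lies before that point of the arm and CDKN1B in the flank. The promoter of RASSF8 is not shown, because the reference used holds no entry for it. The sequences are from RefSeq on GRCh38.p14, 250 bases before the start site to 50 after it, on the strand of the gene. Capitals mark the E-box CACGTG, the AP-1 motif TGANTCA and the CCAAT box, each searched on both strands and independently, so that matches could overlap. The windows are BHLHE41 at chr12:26124988-26125287 (minus strand), SSPN at chr12:26195323-26195622 (plus strand), BCAT1 at chr12:24949052-24949351 (minus strand), LDHB at chr12:21657793-21658092 (minus strand) and CDKN1B at chr12:12717118-12717417 (plus strand).
BHLHE41: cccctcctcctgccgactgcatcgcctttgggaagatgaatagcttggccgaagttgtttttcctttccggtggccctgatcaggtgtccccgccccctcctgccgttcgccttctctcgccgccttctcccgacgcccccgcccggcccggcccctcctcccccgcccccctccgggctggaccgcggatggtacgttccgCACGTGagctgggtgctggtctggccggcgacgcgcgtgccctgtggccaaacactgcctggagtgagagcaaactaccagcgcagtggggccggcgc
SSPN: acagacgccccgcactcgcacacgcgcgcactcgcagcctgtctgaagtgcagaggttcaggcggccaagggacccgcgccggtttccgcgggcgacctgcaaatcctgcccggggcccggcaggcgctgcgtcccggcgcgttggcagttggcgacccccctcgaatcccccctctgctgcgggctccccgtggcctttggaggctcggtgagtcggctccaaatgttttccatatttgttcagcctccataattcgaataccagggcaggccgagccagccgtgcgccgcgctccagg
BCAT1: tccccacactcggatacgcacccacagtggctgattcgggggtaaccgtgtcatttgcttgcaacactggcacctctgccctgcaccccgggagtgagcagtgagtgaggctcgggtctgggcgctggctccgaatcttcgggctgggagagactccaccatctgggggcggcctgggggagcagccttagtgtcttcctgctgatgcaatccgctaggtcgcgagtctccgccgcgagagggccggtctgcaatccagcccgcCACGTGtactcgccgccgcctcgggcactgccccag
LDHB: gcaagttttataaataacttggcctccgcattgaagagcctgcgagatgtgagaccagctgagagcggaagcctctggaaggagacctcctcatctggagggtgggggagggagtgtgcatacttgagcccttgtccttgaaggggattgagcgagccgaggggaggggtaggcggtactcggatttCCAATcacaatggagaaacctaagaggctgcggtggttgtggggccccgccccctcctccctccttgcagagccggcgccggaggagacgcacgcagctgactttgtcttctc
CDKN1B: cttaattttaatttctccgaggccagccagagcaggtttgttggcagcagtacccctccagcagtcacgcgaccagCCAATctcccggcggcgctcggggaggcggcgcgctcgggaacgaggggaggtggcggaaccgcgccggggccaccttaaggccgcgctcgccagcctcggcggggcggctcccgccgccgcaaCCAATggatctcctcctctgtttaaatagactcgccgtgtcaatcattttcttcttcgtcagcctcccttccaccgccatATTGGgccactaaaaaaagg
The BHLHE41 and BCAT1 windows each hold 1 E-box, the LDHB window 1 CCAAT box and the CDKN1B window 3 CCAAT boxes, while the SSPN window holds none of the 3 motifs. The E-box was present in 3.51% of 57 promoters of genes at 24 to 35 Mb, in 4.29% of 210 at 0 to 20 Mb and in 8.34% of all 22132 promoters. The AP-1 motif was present in 5.26%, 8.10% and 6.15% of the same 3 sets, and the CCAAT box in 22.8%, 34.3% and 34.6%. The measured regions cover the whole BCAT1, LDHB and CDKN1B windows and 42 bases of the SSPN window. BCAT1 has 5 promoter entries and SSPN has 2, and the entry with the most overlap with the measured region was printed. The overlap of these windows therefore follows in part from that choice. The region assigned to BHLHE41 lies within 1 kb of its start site, at 26125932 to 26126855, and does not overlap the window. A match shows only that the letters are present.

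The open chromatin of the arm was concentrated beyond 24 Mb in both groups. The block at 24 to 30 Mb, whose border was set after the levels were seen, held 31 members per Mb and 920 CPM per Mb. The block at 30 to 35 Mb held 20.2 members and 598 CPM per Mb. The block at 0 to 20 Mb held 18.05 members and 277 CPM per Mb, the block at 20 to 24 Mb held 4.25 and 65.1, and the rest of chromosome 12 held 19.2 and 385. Among 2114 windows of 1 Mb across the genome, those starting at 26, 27, 31 and 25 Mb ranked 33, 45, 92 and 133 from the highest summed level. The window at 6 Mb, which holds GAPDH and its neighbours, ranked 51 and was the only one at 0 to 20 Mb above rank 500.

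**Figure D1:**
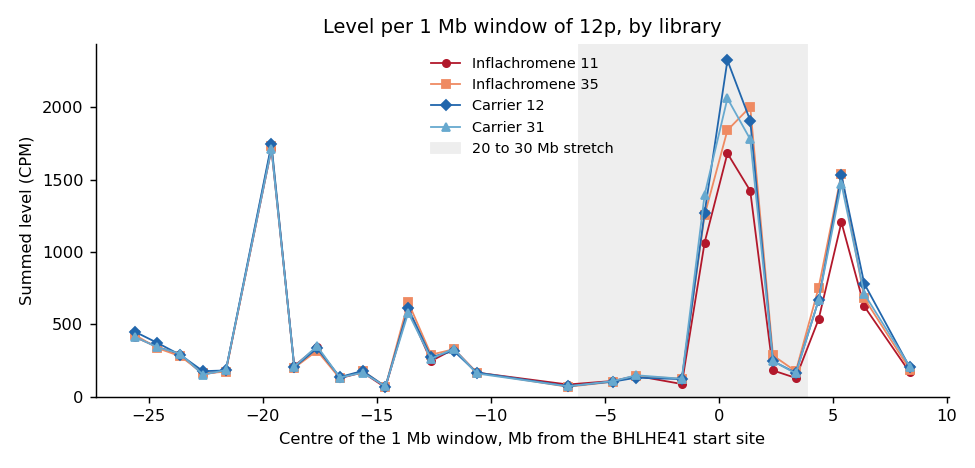
Summed level in CPM of each 1 Mb window of 12p with at least 5 members, by library, against the distance of its centre from the BHLHE41 start site. The windows next to that start site reach 1683 and 1843 CPM under Inflachromene and 2326 and 2063 CPM under Carrier, while the windows to the left of the shaded stretch nearly coincide in all 4 libraries.

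High levels beyond 24 Mb were not confined to gene ends. Members more than 1 kb from a gene end had a median of 12.1 CPM at 24 to 35 Mb, 7.46 CPM at 0 to 20 Mb and 8.60 CPM over the genome. A level of 24.4 CPM or more was reached by 54 of 247 at 24 to 35 Mb, or 21.9%, by 15 of 248 at 0 to 20 Mb, or 6.05%, and by 10.0% genome-wide. The 5 with the highest mean level at 20 to 30 Mb all lay between 25 and 27 Mb. The highest, at chr12:25385831-25386770 with LMNTD1 as the nearest gene, had 204 and 219 CPM under Inflachromene and 220 and 260 CPM under Carrier. The next, at chr12:26113967-26114928 near BHLHE41, had 175 and 161 CPM under Inflachromene and 205 and 202 CPM under Carrier. Both were lower in each Inflachromene library than in either Carrier library. Members found in all 4 libraries were 28.2% of the merged regions at 20 to 30 Mb and 44.6% at 0 to 20 Mb, against 39.6% genome-wide.

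Inflachromene libraries carried a smaller share of the arm's counts in the 20 to 30 Mb stretch. The stretch took 37.6% and 40.6% of member counts under Inflachromene, against 41.6% and 41.4% under Carrier. The ratio of the stretch to its flanks was 0.603 and 0.684 under Inflachromene and 0.714 and 0.707 under Carrier. On the log2 scale the ratio averaged -0.64 ± 0.13 under Inflachromene and -0.49 ± 0.01 under Carrier (SD, n = 2 each), a difference of -0.15. The groups did not overlap, but Inflachromene 11 was 0.24 below the Carrier mean (-0.24) and Inflachromene 35 only 0.06 below it (-0.06), so without Inflachromene 11 the difference was -0.06 and without Inflachromene 35 it was -0.24. With 2 libraries a group an exact two-sided permutation test cannot give a p below 0.333, and none was run. Without the barcodes deeper under the same name in another library the difference was also -0.15, and with the number of barcodes that have a count in place of the counts it was -0.05. Within the members of the stretch, called peaks covered 176 and 176 kb under Inflachromene and 176 and 175 kb under Carrier. Peaks outside the shared regions were not counted, and a member has a peak in every library by definition. Per kb of called peak, the stretch held 27.5 and 33.9 CPM under Inflachromene and 35.8 and 34.5 CPM under Carrier. The flanks held 19.96 and 21.6 CPM per kb under Inflachromene and 21.9 and 21.2 CPM per kb under Carrier.

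The lower level began at 24 Mb and ran past 30 Mb in Inflachromene 11, and did not hold over all of that span in Inflachromene 35. Counts at 24 to 30 Mb over those at 0 to 20 Mb were 0.835 and 1.03 under Inflachromene and 1.08 and 1.05 under Carrier. Counts at 30 to 35 Mb over those at 0 to 20 Mb were 0.463 and 0.571 under Inflachromene and 0.567 and 0.559 under Carrier, so the groups overlapped there. Those at 20 to 24 Mb overlapped too, with log2 ratios of -4.38 and -4.36 under Inflachromene and -4.53 and -4.37 under Carrier.

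Of the 28 windows of 1 Mb tested on the arm, edgeR's quasi-likelihood test called none at an adjusted p under 0.05 (0.00% of 2114 windows genome-wide). The window at 26 to 27 Mb had 1683 and 1843 CPM under Inflachromene and 2326 and 2063 CPM under Carrier. Its log2 fold change was -0.32 (SE 0.08, edgeR unadjusted p = 0.0030, adjusted p = 0.905), the lowest on the arm and rank 21 of 2114. DESeq2 called this window, 1 of 20 on the arm to which it gave an adjusted p (0.316% called lower genome-wide). It was the only one of the arm also called by edgeR without Inflachromene 11 (log2 fold change -0.25, adjusted p = 0.0403), a fit that called 3.57% of the arm and 6.39% of all 2114 windows and in which the lone Inflachromene library was assumed to vary like the Carrier libraries. Without Inflachromene 35, 7 windows of the arm were called, all at 24 to 32 Mb, or 25% of those on the arm, against 1.04% genome-wide.

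**Figure D2:**
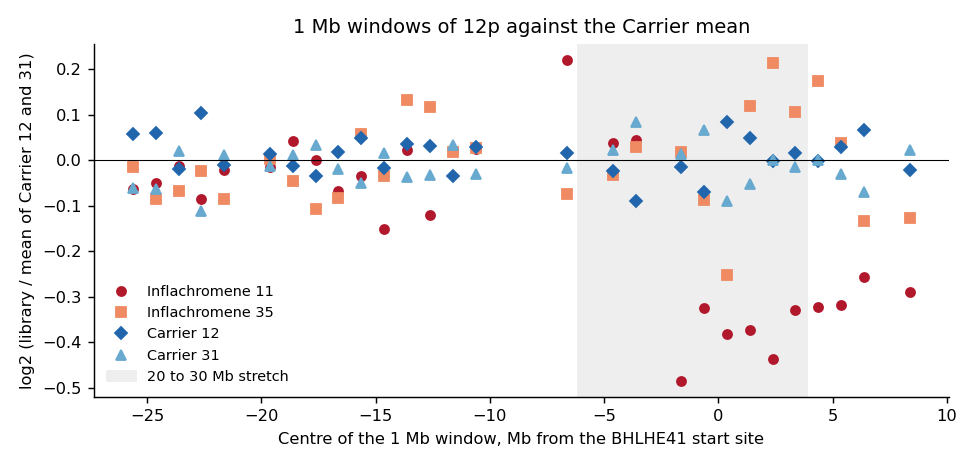
log2 of each library over the mean of the Carrier libraries for 1 Mb windows of 12p, by distance of the window centre from the BHLHE41 start site. Inflachromene 11 lies between -0.48 and -0.26 in every window shown from 24 Mb onward, and Inflachromene 35 is lowest, at -0.25, in the window that starts at 26 Mb.

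As 1 window of 10 Mb, the stretch had 4838 and 5959 CPM under Inflachromene and 6285 and 6039 CPM under Carrier. Its log2 fold change of -0.19 (SE 0.07) was rank 3 from the lowest of 297 windows, after chromosome 9 at 20 to 30 and 10 to 20 Mb, and did not pass the test (edgeR adjusted p = 0.200). The windows called were those 2 on chromosome 9, or 0.673%. Without Inflachromene 35 the value was -0.35 (edgeR adjusted p = 3.3e-05), without Inflachromene 11 it was -0.06 (edgeR adjusted p = 0.770), and without Carrier 31 it was -0.22 (edgeR adjusted p = 0.0498). With the number of barcodes that have a count it was -0.09 (edgeR adjusted p = 0.562). Across all alternatives its adjusted p ran from 3.3e-05 to 0.985.

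edgeR called no member at an adjusted p under 0.05 (0.00% of 50771 regions genome-wide). DESeq2 called none of the 549 members to which it gave an adjusted p (0.00% lower and 0.0653% higher genome-wide). At an unadjusted p under 0.05, 33 of the 665 were lower under Inflachromene (1.44% of regions genome-wide were): 4 at 0 to 20 Mb, 21 at 20 to 30 Mb and 8 at 30 to 35 Mb. At the same limit 11 were higher (3.04% genome-wide). Both Inflachromene libraries lay below both Carrier libraries in 24.7% of members at 0 to 20 Mb, 38.9% at 20 to 30 Mb and 40.6% at 30 to 35 Mb, against 21.3% genome-wide. The median log2 fold change was 0.01 at 0 to 20 Mb, -0.15 at 20 to 30 Mb and -0.15 at 30 to 35 Mb, against 0.01 over all regions. Without Inflachromene 11 the median at 20 to 30 Mb was -0.01, and without Inflachromene 35 it was -0.41. Of the members at 24 to 30 Mb, 91.9% were lower in Inflachromene 11 than in both Carrier libraries and 44.1% were lower in Inflachromene 35. Genome-wide these shares were 42.2% for Inflachromene 11 and 41.3% for Inflachromene 35.

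A segment of 277 kb with RASSF8, BHLHE41 and SSPN was low in both Inflachromene libraries. It was picked out after its values were seen, as the 23 members from the first over RASSF8 to the last over SSPN, and carries no test. Their summed level was 944 and 927 CPM under Inflachromene, against 1290 and 1208 CPM under Carrier. All 23 had a negative log2 fold change, from -0.76 to -0.15 with a median of -0.42. In Inflachromene 11 all 23 lay below both Carrier libraries (42.2% of regions genome-wide), and in Inflachromene 35, 21 did (41.3% genome-wide). The other 264 members at 24 to 35 Mb had 6166 and 7928 CPM under Inflachromene and 7939 and 7627 CPM under Carrier. Against the Carrier mean, the log2 values of the segment were -0.40 in Inflachromene 11 and -0.43 in Inflachromene 35, and those of the other members were -0.34 in Inflachromene 11 and 0.03 in Inflachromene 35. By these sums over all barcodes, mouse 11 was low over both, while mouse 35 was low over the segment and close to the Carrier mean over the other members together. The latter sum joins both directions. Against the Carrier mean, Inflachromene 35 was at 0.04 to 0.21 in the 1 Mb windows starting at 27 to 31 Mb. It was at -0.13 in those starting at 32 and 34 Mb. Outside the segment, the members over LMNTD1 were at -0.38 and those over BMAL2 at 0.43 in that library.

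**Figure D3:**
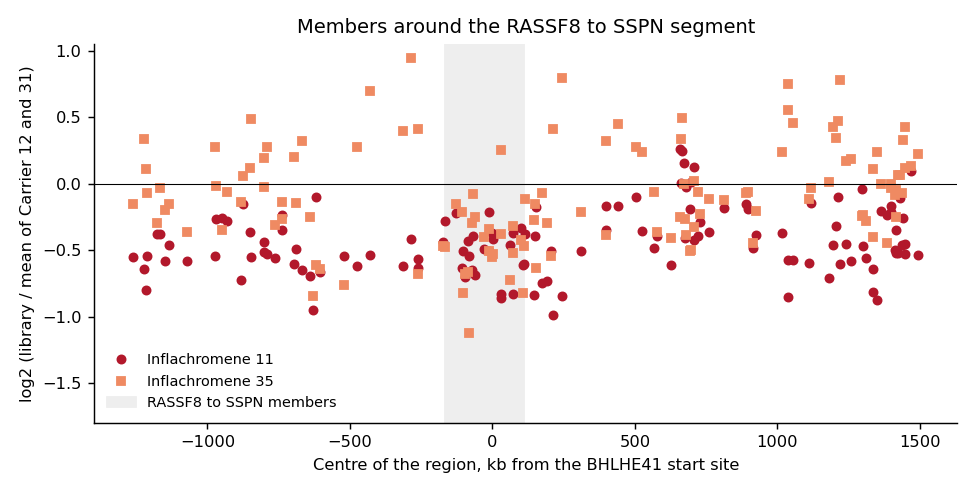
log2 of each Inflachromene library over the mean of the Carrier libraries for each member near the BHLHE41 start site, by distance in kb. Within the shaded segment all 23 points of Inflachromene 11 and most of those of Inflachromene 35 lie below 0, and outside it the points of Inflachromene 35 lie on both sides of 0.

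The segment holds members over the bodies of RASSF8 and SSPN. The 10 members over RASSF8 had 311 and 292 CPM in sum under Inflachromene and 414 and 403 CPM under Carrier. The 10 over SSPN, the gene of sarcospan in the dystrophin-glycoprotein complex, had 376 and 389 CPM under Inflachromene and 544 and 500 CPM under Carrier. Those over SSPN include the gene-end regions of SSPN and of BHLHE41, and those over RASSF8 include its gene-end region. The gene-end values given below are therefore not separate from these sums. In each gene 9 of the 10 were lower in both Inflachromene libraries than in both Carrier libraries, an order held by 21.3% of regions genome-wide. The member within RASSF8 at chr12:26028821-26029716 had the smallest unadjusted p of those away from gene ends, with 22.4 and 22.8 CPM under Inflachromene and 36.3 and 36.7 CPM under Carrier. Its log2 fold change was -0.65 (SE 0.16, edgeR unadjusted p = 0.0019, adjusted p = 0.9996).

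The long genes on both sides of the segment differed among themselves. The 21 members over ITPR2, a calcium channel of the endoplasmic reticulum opened by inositol trisphosphate, summed to 291 and 338 CPM under Inflachromene and 364 and 307 CPM under Carrier, so the groups overlapped. The 17 over PPFIBP1, the gene of liprin beta 1, summed to 493 and 665 CPM under Inflachromene and 633 and 614 CPM under Carrier, with overlap as well. The 6 over LMNTD1, at lower coordinates than RASSF8, summed to 44.9 and 54.4 CPM under Inflachromene and 61.4 and 79.8 CPM under Carrier, with no overlap. Beyond 30 Mb, the 11 over BICD1, an adaptor of dynein transport, summed to 213 and 243 CPM under Inflachromene and 276 and 248 CPM under Carrier. The 10 over FGD4, an exchange factor for CDC42, summed to 87.8 and 99.5 CPM under Inflachromene and 129 and 103 CPM under Carrier. BICD1 and FGD4 were lower in both Inflachromene libraries, with Inflachromene 35 close to Carrier 31.

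Gene ends were measured for 154 of the 288 protein-coding genes of the arm, with levels in counts per 1000000 gene-end counts. edgeR called none of the 154 at an adjusted p under 0.05 (0.00% of 12785 gene ends). At an unadjusted p under 0.05, 7 were lower under Inflachromene (2.20% genome-wide) and none was higher (3.56% genome-wide). Both Inflachromene libraries lay below both Carrier libraries at 36 of the 154, or 23.4%, against 18.4% genome-wide. Of the 154, 40 share their region with another gene, so a region can be counted more than once in these numbers. DESeq2 called 2, RASSF8 and BHLHE41, both lower (0.0704% called lower genome-wide). At 20 to 30 Mb 33 of 52 genes were measured, and their median log2 fold change was -0.09, against -0.02 for the 108 at 0 to 20 Mb and 0.00 genome-wide.

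Among signalling genes of the stretch, RASSF8 had 295 and 284 CPM under Inflachromene and 383 and 377 CPM under Carrier. Both Inflachromene libraries were lower, with a log2 fold change of -0.39 (SE 0.07, edgeR adjusted p = 0.216, DESeq2 adjusted p = 5.9e-05). It had the smallest edgeR p of the arm, and its edgeR adjusted p was 0.0410 without Inflachromene 11, a fit that called 0.594% of gene ends genome-wide. With the number of barcodes that have a count in place of the counts, the log2 fold change was -0.05 for RASSF8 and -0.21 for BHLHE41. ITPR2 had 155 and 160 CPM under Inflachromene and 157 and 146 CPM under Carrier, with a log2 fold change of 0.06 (SE 0.07). The RASSF8 and ITPR2 regions lie at an outer end of the gene, since no start site was used for them.

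Of the transcription factors, BHLHE41 had 189 and 192 CPM under Inflachromene and 293 and 242 CPM under Carrier. Its region lies within SSPN and is also among the members over that gene. Both Inflachromene libraries were lower, at a log2 fold change of -0.48 (SE 0.09, edgeR adjusted p = 0.305, DESeq2 adjusted p = 0.00093). BMAL2, a circadian partner of CLOCK, had 70.1 and 122 CPM under Inflachromene and 110 and 75.8 CPM under Carrier. Its spread within each group was larger than the difference between the groups (0.06 on the log2 scale, SE 0.23).

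Surface and secreted proteins differed among themselves. SSPN had 92.0 and 91.1 CPM under Inflachromene and 142 and 112 CPM under Carrier, a log2 fold change of -0.46 (SE 0.10, edgeR adjusted p = 0.468). Without Carrier 12 it was -0.28, and with the number of barcodes that have a count it was -0.29. PTHLH, which encodes parathyroid hormone-related protein, had 78.4 and 118 CPM under Inflachromene and 114 and 117 CPM under Carrier. Only Inflachromene 11 was low, and the edgeR adjusted p was 0.909 over all libraries and 0.0196 without Inflachromene 35, a fit that called 0.149% of gene ends genome-wide.

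Among genes of metabolism, BCAT1, the cytosolic aminotransferase of branched-chain amino acids, had 32.2 and 37.6 CPM under Inflachromene and 43.3 and 45.3 CPM under Carrier. The groups did not overlap, at a log2 fold change of -0.34 (SE 0.13, edgeR adjusted p = 0.813). LDHB, a lactate dehydrogenase subunit that lies before 24 Mb, had 50.1 and 52.4 CPM under Inflachromene and 55.1 and 53.7 CPM under Carrier, with a log2 fold change of -0.08 (SE 0.10). ETNK1, an ethanolamine kinase also before 24 Mb, had 58.6 and 54.0 CPM under Inflachromene and 57.7 and 51.0 CPM under Carrier, with overlap.

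By the sign of the log2 fold change, the gene ends of the stretch differed by position. All 33 measured are counted here, with those already named above. Before 24 Mb, 2 of 9 had a log2 fold change below 0, and from 24 to 30 Mb 22 of 24 had, against 6452 of 12785 genome-wide. From 24 to 30 Mb, 23 of the 24 were lower in Inflachromene 11 than in both Carrier libraries (34.7% genome-wide). In Inflachromene 35 only 7, or 29.2%, were (37.0% genome-wide). Genes that share a region are counted separately here. These are RECQL and GOLT1B before 24 Mb, and DNAI7 and ETFRF1, INTS13 and FGFR1OP2, and MANSC4 and KLHL42 beyond it. Before 24 Mb, the region shared by RECQL, a DNA helicase, and GOLT1B, a Golgi transport protein, had 76.4 and 78.2 CPM under Inflachromene and 73.6 and 77.9 CPM under Carrier. C2CD5, which acts in insulin-dependent vesicle traffic, had 76.9 and 77.3 CPM under Inflachromene and 76.0 and 74.1 CPM under Carrier. Beyond 24 Mb, the region shared by INTS13, a subunit of the Integrator complex, and FGFR1OP2 had 325 and 374 CPM under Inflachromene and 402 and 381 CPM under Carrier. IRAG2, an endoplasmic reticulum membrane protein, had 10.1 and 13.0 CPM under Inflachromene and 15.4 and 16.7 CPM under Carrier. Neither the INTS13 region nor IRAG2 overlapped between the groups, with log2 fold changes of -0.16 and -0.46. Without Inflachromene 11 these were -0.06 for INTS13 and -0.29 for IRAG2, and without Inflachromene 35 that of INTS13 was -0.27. PPFIBP1 had 242 and 302 CPM under Inflachromene and 306 and 289 CPM under Carrier. MRPS35, of the mitochondrial ribosome, had 143 and 175 CPM under Inflachromene and 189 and 167 CPM under Carrier. ERGIC2, of transport between endoplasmic reticulum and Golgi, had 157 and 196 CPM under Inflachromene and 207 and 188 CPM under Carrier. In PPFIBP1, MRPS35 and ERGIC2 Inflachromene 11 was lowest and Inflachromene 35 lay between the Carrier libraries.

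**Figure D4:**
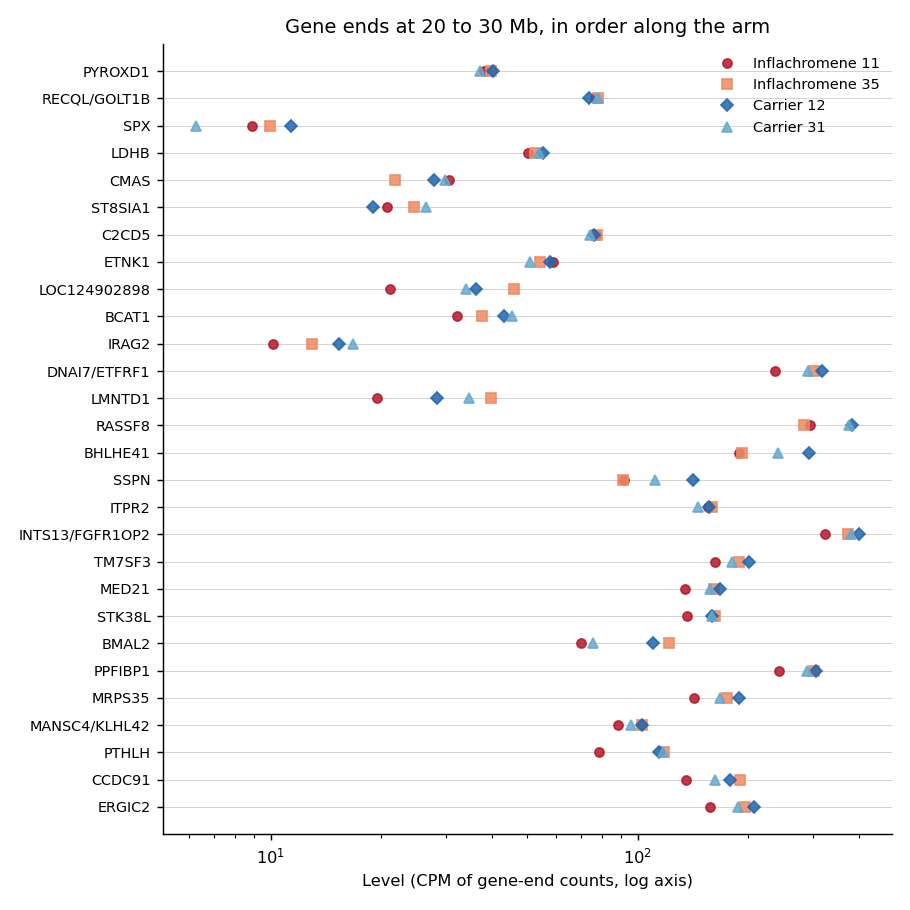
Level of the measured gene ends reported at 20 to 30 Mb in counts per 1000000 gene-end counts, on a log axis, with genes ordered along the arm from the top and those that share a region named together. The Inflachromene points of RASSF8, BHLHE41 and SSPN lie left of both Carrier points, and for most genes below SSPN only Inflachromene 11 lies to the left.

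Beyond 30 Mb all 13 measured gene ends had a log2 fold change below 0, from -0.19 to -0.02. All 13 were lower in Inflachromene 11 than in both Carrier libraries (34.7% genome-wide), and 3 were in Inflachromene 35 (37.0% genome-wide). In 3, or 23.1%, both Inflachromene libraries were lower without overlap, against 18.4% genome-wide. DNM1L, the GTPase of mitochondrial fission, had 227.5 and 249 CPM under Inflachromene and 263 and 256 CPM under Carrier. YARS2, a mitochondrial tyrosyl-tRNA synthetase, had 183 and 191 CPM under Inflachromene and 209 and 202 CPM under Carrier. ALG10, a glucosyltransferase of N-glycan precursors, had 162 and 206 CPM under Inflachromene and 208 and 213 CPM under Carrier. Their log2 fold changes were -0.12, -0.13 and -0.19, with edgeR adjusted p of 0.903, 0.863 and 0.888. Without Inflachromene 11 the value was -0.05 for DNM1L and -0.02 for ALG10, and without Inflachromene 35 it was -0.19 for DNM1L and -0.37 for ALG10.

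In the flank at 0 to 20 Mb, gene ends spread around 0. CDKN1B, whose region is shared with GPR19, had 73.6 and 64.2 CPM under Inflachromene and 59.9 and 63.1 CPM under Carrier, so both Inflachromene libraries were higher (log2 fold change 0.17, SE 0.09, edgeR adjusted p = 0.888). Without Inflachromene 11 the value was 0.07, and without Inflachromene 35 it was 0.26. GAPDH had 82.7 and 93.8 CPM under Inflachromene and 93.4 and 93.4 CPM under Carrier. FOXM1, a transcription factor of the cell cycle, had 45.0 and 41.4 CPM under Inflachromene and 43.5 and 44.4 CPM under Carrier, with a log2 fold change of -0.02 (SE 0.11). The largest log2 fold change, 0.71 (SE 0.39), was that of ARHGDIB, with 4.82 and 10.9 CPM under Inflachromene and 4.26 and 5.44 CPM under Carrier. GPRC5A, an orphan receptor induced by retinoic acid, had 44.4 and 68.0 CPM under Inflachromene and 49.3 and 37.97 CPM under Carrier. The ARHGDIB and GPRC5A groups overlapped. CREBL2, a bZIP protein, and PLEKHA5, a pleckstrin-domain protein, were higher in both Inflachromene libraries, at log2 fold changes of 0.16 and 0.25, and without Inflachromene 11 that of CREBL2 was 0.08.

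Read by gene list, no list of the arm held a gene past edgeR's threshold, against 0.00% of gene ends genome-wide. Of 16 genes of GTPase, kinase and second messenger signalling 11 were measured, 7 of them below 0, with a median log2 fold change of -0.04. Of 20 transcription and chromatin genes 16 were measured, 9 below 0 and a median of -0.01, and SOX5 and ETV6 had no shared region at an end. Of 17 metabolic genes 13 were measured, 8 below 0 and a median of -0.07. Of 11 genes of cell cycle and DNA repair 10 were measured, 7 below 0 and a median of -0.02, and CCND2 (cyclin D2) had no region. Of 15 channels and transporters 2 were measured, 1 below 0. Of 13 genes of membrane traffic, organelles and RNA transport 12 were measured, 7 below 0 and a median of -0.02. Of 17 growth factors, receptors and surface proteins 7 were measured, 2 below 0 and a median of 0.06. Of 47 genes in the lymphoid, taste and salivary clusters 4 were measured, all below 0 with a median of -0.08. Among these, PRH1 and PRH1-TAS2R14 share a region, and that of KLRG1 is shared with a gene outside the clusters. The median over all gene ends genome-wide was 0.00, and the list medians lie within 0.1 of it.

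The nuclei of each library differed more from each other in the stretch than in the flank. Barcodes with 10000 or more counts are called nuclei here, and no doublet caller was run. Inflachromene 11 had 1136 nuclei and Inflachromene 35 had 1726, against 1768 in Carrier 12 and 684 in Carrier 31, with a median of 232 and 248 member counts per nucleus under Inflachromene and 225 and 506 under Carrier. The median share of member counts in the stretch was 37.3% and 39.6% under Inflachromene and 42.0% and 40.5% under Carrier, means of 38.4 ± 1.6 and 41.3 ± 1.0 (SD, n = 2 each). The groups did not overlap, by a difference of -2.81 percentage points. With regions that have a count in place of the counts they overlapped, at a difference of -1.19 points. In the lowest 5% of nuclei the share was at most 23.5% and 26.02% under Inflachromene and 28.8% and 27.9% under Carrier.

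Beyond the spread that counting alone gives, the level of the stretch varied between nuclei with a coefficient of variation of 0.343 and 0.410 under Inflachromene and 0.232 and 0.427 under Carrier. By its mean over libraries this ranked 3 of 297 windows of 10 Mb, whose medians were 0.163 and 0.160 under Inflachromene and 0.132 and 0.196 under Carrier. At 0 to 20 Mb the value was 0.141 and 0.143 under Inflachromene and 0.119 and 0.140 under Carrier. The window at 30 to 40 Mb, which takes in the other flank, had 0.246 and 0.341 under Inflachromene and 0.179 and 0.324 under Carrier. It ranked 9 of the 297 windows, so a high spread was not particular to the stretch. Nuclei with less than 0.5 times the median level of their library at 24 to 35 Mb made up 4.40% and 6.43% under Inflachromene and 4.86% and 4.24% under Carrier. Nuclei above 2 times the median made up 0.968% and 2.20% under Inflachromene and 0.0566% and 2.78% under Carrier. The groups overlapped in both tails.

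The blocks beyond 24 Mb moved together across nuclei and the block at 0 to 20 Mb did not move with them. Spearman's rank correlation between the levels at 24 to 27 and 30 to 35 Mb was 0.62 and 0.72 within Inflachromene libraries and 0.28 and 0.69 within Carrier libraries. Between 0 to 20 and 24 to 35 Mb it was -0.04 and -0.02 under Inflachromene and 0.02 and 0.07 under Carrier. Between 20 to 24 and 24 to 35 Mb it was below 0 in every library, at -0.07 and -0.27 under Inflachromene and -0.04 and -0.13 under Carrier. The block at 20 to 24 Mb holds only 17 members with 260 CPM in sum, so its level in a nucleus rests on few counts. These correlations are over the nuclei of 1 library, share its depth, and are given as a description. Among other windows of the genome, chromosome 9 at 20 to 30 Mb had the highest mean correlation with the 24 to 35 Mb block. Its values were 0.58 and 0.25 under Inflachromene and 0.30 and 0.57 under Carrier. The whole short arm of chromosome 9 had 0.58 and -0.04 under Inflachromene and 0.23 and 0.57 under Carrier. With the whole arm, the correlation was therefore not positive in Inflachromene 35. The short arm of chromosome 3 was below 0 in every library, with -0.54 and -0.22 under Inflachromene and -0.05 and -0.35 under Carrier.

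Nuclei low on the short arm of chromosome 9 (0 to 38 Mb) differ in number between libraries. The members were therefore also read within parts of each library. These were the lowest 25%, middle 50% and highest 25% of nuclei by their share of counts on 9p. Cut within a library, the parts did not have the same 9p share in each library. The median share of the middle 50% was 1.35% and 1.22% under Inflachromene and 1.53% and 1.46% under Carrier. That of the highest 25% was 1.63% and 1.64% under Inflachromene and 1.73% and 1.66% under Carrier. The segment was read only in these parts, so the mix of nuclei was not made equal for it. In the highest 25%, the RASSF8 to SSPN segment had 1258 and 1255 CPM under Inflachromene and 1433 and 1530 CPM under Carrier. In the middle 50% it had 1019 and 769 CPM under Inflachromene and 1385 and 1377 CPM under Carrier. In the lowest 25% it had 523 and 940 CPM under Inflachromene and 983 and 665 CPM under Carrier. The groups did not overlap in the highest and middle nuclei and overlapped in the lowest. The other members at 24 to 35 Mb had 7297 and 8298 CPM under Inflachromene and 8444 and 9079 CPM under Carrier in the highest 25%, and 6406 and 6762 CPM under Inflachromene and 8149 and 8359 CPM under Carrier in the middle 50%. They had 4790 and 10027 CPM under Inflachromene and 7250 and 5330 CPM under Carrier in the lowest 25%. For these members too the groups did not overlap in the highest and middle nuclei and overlapped in the lowest. In Inflachromene 35 these members were highest in the nuclei low on 9p, while in each of the other 3 libraries they were lowest there.

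**Figure D5:**
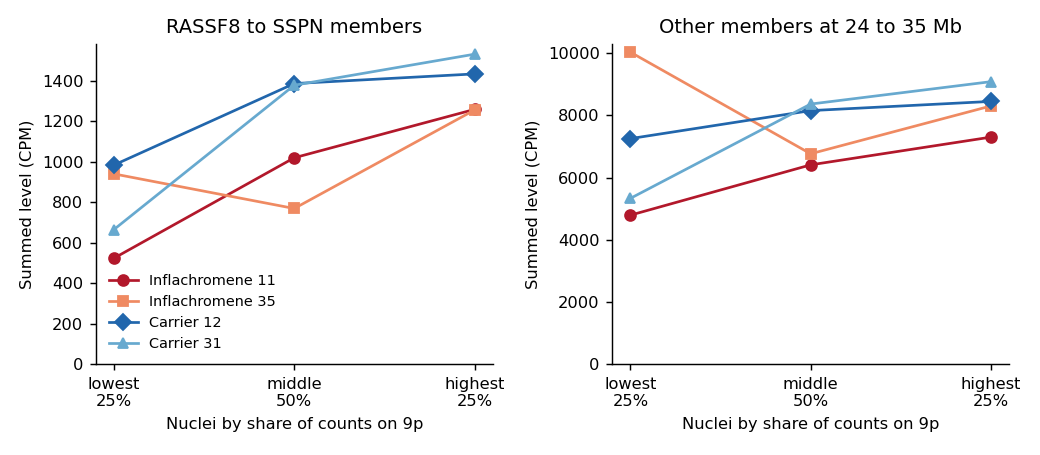
Summed level in CPM of the RASSF8 to SSPN members (left) and of the other members at 24 to 35 Mb (right) in nuclei split within each library by their share of counts on 9p. In both panels the Inflachromene libraries lie below both Carrier libraries in the middle and highest nuclei, and on the right Inflachromene 35 reaches 10027 CPM in its lowest nuclei, against 4790 CPM in Inflachromene 11.

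With the same limits of 9p share in every library, chosen after the levels were seen, the 20 to 30 Mb stretch was lower in both Inflachromene libraries in each bin from 1.1% upward. The mean log2 difference was -0.27 at 1.1% to 1.3%, -0.20 at 1.3% to 1.5% and -0.17 above 1.5%. Below 0.9% Inflachromene 11 was at -0.10 and Inflachromene 35 at 0.99 against the Carrier mean, and at 0.9% to 1.1% they were at -0.27 and 0.57. Nuclei below 1.1% were 10.9% plus 23.6% of Inflachromene 11 and 10.5% plus 24.3% of Inflachromene 35 for these 2 bins, against 3.85% plus 6.17% of Carrier 12 and 5.12% plus 13.3% of Carrier 31. At 0 to 20 Mb the log2 difference lay between -0.02 and 0.01 in every bin.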

How the data were processed

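Per the labels' protocols, nuclei were isolated and single-nucleus ATAC libraries prepared with 10x reagents. The authors deposited, per library, a peak list and raw counts of each peak in each barcode. GRCh38 is the build, and Cell Ranger ARC and Cell Ranger ATAC 2.1.0 are the tools, per the submitters' processing notes. Between 82.4% and 84.9% of the counts above 0 were even, so 2 counts are often 1 fragment. Peaks were called per library, so only regions with a peak everywhere have counts in every library.

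Peaks overlapping by at least 1 bp were merged. Counts were summed over all barcodes of a library, since the mouse is the replicate. They were tested with edgeR 4.0.16 (TMM, filterByExpr, which removed nothing, quasi-likelihood test, Benjamini-Hochberg over all features, threshold 0.05), and DESeq2 1.42.0 was an alternative. The scripts were tested on simulated data. The 4 samples are separate mice, 2 a group. A gene end is a shared region within 1 kb of the RefSeq start site (10464 genes) or, where none was given, of an outer end (2321), the highest if several. Windows needed 5 (1 Mb) or 20 regions (10 Mb), nuclei 20 member counts. Promoter entries matched 118 of 154 gene ends.

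The members and gene lists were chosen with earlier results of these data known. Genes named are gene ends at 20 to 30 Mb and, outside it, up to 4 per list by unadjusted p plus GAPDH, CCND2, CDKN1B and FOXM1. Regions named are the highest and those with the smallest p at 20 to 30 Mb. The border at 24 Mb, the RASSF8 to SSPN segment, the bins of 9p share, counts per kb and the removal of shared barcode names were added after seeing the data. A gene end of the stretch is not reported here.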

Additional observations from a re-analysis of the deposited data

How the results depend on the processing

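No paired analysis was possible because the groups share no replicate numbers. Leaving out 1 library at a time, edgeR called 0 to 44 member regions, 44 without Inflachromene 11 (6.62% of members, 6.26% of all regions) and 10 without Inflachromene 35 (1.5% of members, 0.589% of all regions), with the lone library of a group assumed to vary like the other group. It called 0 to 2 gene ends of the arm, RASSF8 and PTMS without Inflachromene 11 and PTHLH, as 1, without Inflachromene 35. These fits called 0.594% and 0.149% of all gene ends. It called 0 to 7 windows of 1 Mb, 1 without Inflachromene 11 (6.39% of all windows) and 7 without Inflachromene 35 (1.04%). DESeq2 called 2 gene ends (0.196% of all) and 1 window of 1 Mb (0.443%).

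The difference of the stretch against its flanks was -0.051 with the number of barcodes that have a count, and -0.24 to -0.06 with 1 library left out. Per nucleus, it was -2.81 points, and -3.95 to -1.66 points with 1 library left out. With regions that have a count it was -1.19 points and the groups overlapped (33.7% and 36.0% under Inflachromene, 37.8% and 34.3% under Carrier). With all regions outside 12p in place of the flanks it was -0.084 points, a share of another total. Those shares were 0.485% and 0.573% under Inflachromene and 0.641% and 0.585% under Carrier. The low counts filter removed nothing.

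Over 26 named gene ends, 244 of 260 alternatives kept the sign of the log2 fold change and 16 reversed it. With the number of barcodes that have a count it was 0.087 for INTS13, 0.045 for DNM1L, 0.030 for PPFIBP1, 0.0062 for YARS2 and 0.0051 for FOXM1. Leaving out Inflachromene 35 and leaving out Inflachromene 11 gave the extremes for most others: -0.56 and 0.037 for PTHLH, -0.32 and 0.0018 for ERGIC2, -0.17 and 0.016 for GAPDH, -0.30 and 0.033 for PPFIBP1, -0.41 and 0.40 for BMAL2, -0.0050 and 1.17 for ARHGDIB, and 0.039 and -0.076 for FOXM1. Leaving out Carrier 12 and leaving out Carrier 31 gave -0.0078 and 0.080 for RECQL, and 0.14 and -0.026 for ETNK1. The cause was not tested.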
